A study of Mus musculus with 24 samples.

Results

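The genes described here encode 10 proteins that recognise foreign or misplaced nucleic acid in the cell, or that pass such a signal on: Ifih1, Dhx58, Zbp1, Aim2, Eif2ak2, Adar, Tlr3, Tlr7, Tlr9 and Mavs. They were taken by symbol, as a list of RNA and DNA sensors that sets no threshold on a measured value. All 10 were on the array, where 21 of 45101 probe sets carried their symbols, and they make up 10 of the 18193 genes tested. From general knowledge 8 of them are interferon-inducible, and the other two, Mavs and Tlr9, are constitutive or restricted to some cell types.

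Expression was measured on 24 Affymetrix arrays of shaved dorsal scapular skin from female RAG2-/- mice, which lack T and B cells of their own. Syngeneic control mice carried Balb/c splenocytes. The GVH-SSc mice, a model of scleroderma-like graft-versus-host disease, carried B10.D2 splenocytes and received either an isotype antibody or anti-IFNAR1, which blocks the receptor for type I interferon. With harvests at day 14 and day 28 there were 6 groups (syngeneic, isotype and anti-IFNAR1 at each day), each of 4 arrays. The deletion of RAG2 and the transfer of splenocytes are shared by all 6 groups. The labels name no antibody for the syngeneic mice, so a difference of isotype from syngeneic skin may hold an effect of the antibody as well as of the graft. Nor do they state that each array is a different mouse, and p-values reflect array-to-array spread alone.

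Ifih1 encodes MDA5 and Dhx58 encodes LGP2, helicases of the RIG-I-like family that bind double-stranded RNA in the cytoplasm. MDA5 signals through Mavs, an adaptor on the mitochondrial surface, towards the genes of type I interferon. Interferon then acts through its receptor, of which IFNAR1 is a chain, and raises the amounts of several of these same sensors, so that they are both the source and the target of the pathway. Aberrant sensing of self nucleic acid is known from skin autoimmunity, and in skin both resident cells and infiltrating leukocytes carry such sensors.

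Levels are given as log2(intensity + 16), for the probe set of each gene with the highest mean, and differences are log2 differences ± SE between groups of 4 arrays. A gene is called when limma's adjusted p (Benjamini-Hochberg over all 18193 genes) is below 0.05. Array medians lay between 14.8 and 17.7 in intensity units, so the offset of 16 is close to the typical background and understates folds of dim genes. The log2 ratio of the 3' to the 5' Gapdh control probe sets, which grows as RNA degrades, exceeded 4 on 5 arrays: syngeneic replicate 4 and anti-IFNAR1 replicates 3 and 4 at day 14, and syngeneic replicate 3 and isotype replicate 1 at day 28. Its group means at day 14 were 2.85 ± 2.50 (SD) in syngeneic, 1.34 ± 0.63 in isotype and 3.34 ± 1.34 in anti-IFNAR1 skin.

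Promoter windows were available for 7 of the 10 genes in RefSeq (GRCm38.p6), each of 300 bases from 250 before the transcription start to 50 after it, and Adar had 3 of them for its alternative starts. They are shown because type I interferon acts on its target genes through interferon-stimulated response elements, whose core was searched on both strands as GAAA, any 2 bases and GAAA. That core was found in Ifih1 and Eif2ak2 and in 3.44% of all 32851 windows. A shorter core bound by interferon regulatory factors, AANNGAAA, lies within every match of the longer core, was added to the search after the windows had been seen, and occurs in 23.9% of windows. It was found in Ifih1, Eif2ak2, the third Adar window and Tlr3. Neither was found in Aim2, Tlr9, Mavs or the other Adar windows. The sequences below run 5' to 3' on the gene's strand, and capitals mark the matches.
Ifih1, chr2:62646206-62646505, minus strand: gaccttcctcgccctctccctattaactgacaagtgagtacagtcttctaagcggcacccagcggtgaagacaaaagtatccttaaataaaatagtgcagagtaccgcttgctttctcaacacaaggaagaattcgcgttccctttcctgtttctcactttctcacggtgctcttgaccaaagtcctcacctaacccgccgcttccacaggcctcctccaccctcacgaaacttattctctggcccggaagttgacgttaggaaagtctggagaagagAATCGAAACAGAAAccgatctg
Eif2ak2, chr17:78882523-78882822, minus strand: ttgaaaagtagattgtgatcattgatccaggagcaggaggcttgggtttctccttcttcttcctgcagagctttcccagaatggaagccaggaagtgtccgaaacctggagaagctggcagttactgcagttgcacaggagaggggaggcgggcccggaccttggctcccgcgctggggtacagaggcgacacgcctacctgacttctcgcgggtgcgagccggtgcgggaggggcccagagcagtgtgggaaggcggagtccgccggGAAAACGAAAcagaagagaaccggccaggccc
Adar, window 3, chr3:89730468-89730767, plus strand: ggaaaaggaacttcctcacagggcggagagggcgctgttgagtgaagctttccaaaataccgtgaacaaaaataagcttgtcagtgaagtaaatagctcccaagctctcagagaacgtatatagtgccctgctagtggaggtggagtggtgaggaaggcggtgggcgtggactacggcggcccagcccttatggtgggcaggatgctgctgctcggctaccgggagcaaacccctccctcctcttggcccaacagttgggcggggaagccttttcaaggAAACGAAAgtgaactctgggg
Mavs, chr2:131233813-131234112, plus strand: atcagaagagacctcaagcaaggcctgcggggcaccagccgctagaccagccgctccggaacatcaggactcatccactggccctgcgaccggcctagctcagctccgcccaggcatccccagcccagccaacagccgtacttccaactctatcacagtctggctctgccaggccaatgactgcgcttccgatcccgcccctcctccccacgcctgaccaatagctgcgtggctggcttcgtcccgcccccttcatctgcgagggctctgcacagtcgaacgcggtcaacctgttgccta
In Ifih1 the longer core lay at bases 33 to 42 after the start, and in Eif2ak2 at bases 19 to 28. Adar had only the shorter core, at bases 30 to 37. The interferon gamma-type motif TTCNNNGAA, present in 8.3% of windows, was found in Eif2ak2 and the third Adar window, where its last bases overlap the shorter core. Mavs is printed as the window of a constitutive member, with no match to any of these motifs. Each match is a run of letters and not a shown binding site.

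In skin with the allogeneic graft and isotype antibody, 6 of the 10 sensors rose at day 14 and 5 at day 28, all of them of the interferon-inducible class, and none fell at either day. Zbp1 showed the greatest difference of the 10 at day 28 and Eif2ak2 at day 14. Over all genes, 5.29% were called higher and 8.3% lower at day 14, and 6.66% and 9.69% at day 28. The median difference of the 8 inducible genes was 1.20 at day 14 and 1.30 at day 28. For Mavs and Tlr9 it was -0.05 and -0.12, and over all genes it was -0.01 and -0.0009. These values do not test whether the rise was limited to the inducible class, which holds 8 of the 10 sensors. Tlr9, at intensities of 6.98 to 9.15, was too dim to show whether it was regulated. The Mavs probe set used may bind other transcripts, and the second Mavs probe set had 0.37 at day 14 and -0.17 at day 28, neither called. With anti-IFNAR1, 1 sensor was lower than with isotype at day 14 (Tlr7) and 3 at day 28 (Dhx58, Zbp1 and Adar), against 0.654% and 4.89% of all genes. No sensor was called higher with the antibody, against 0.159% and 8.42% of genes. Isotype arrays enter both kinds of comparison, so a high isotype value by itself pushes them in opposite directions. In bulk skin, more cells of a type and more RNA per cell cannot be told apart.

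**Figure D1:**
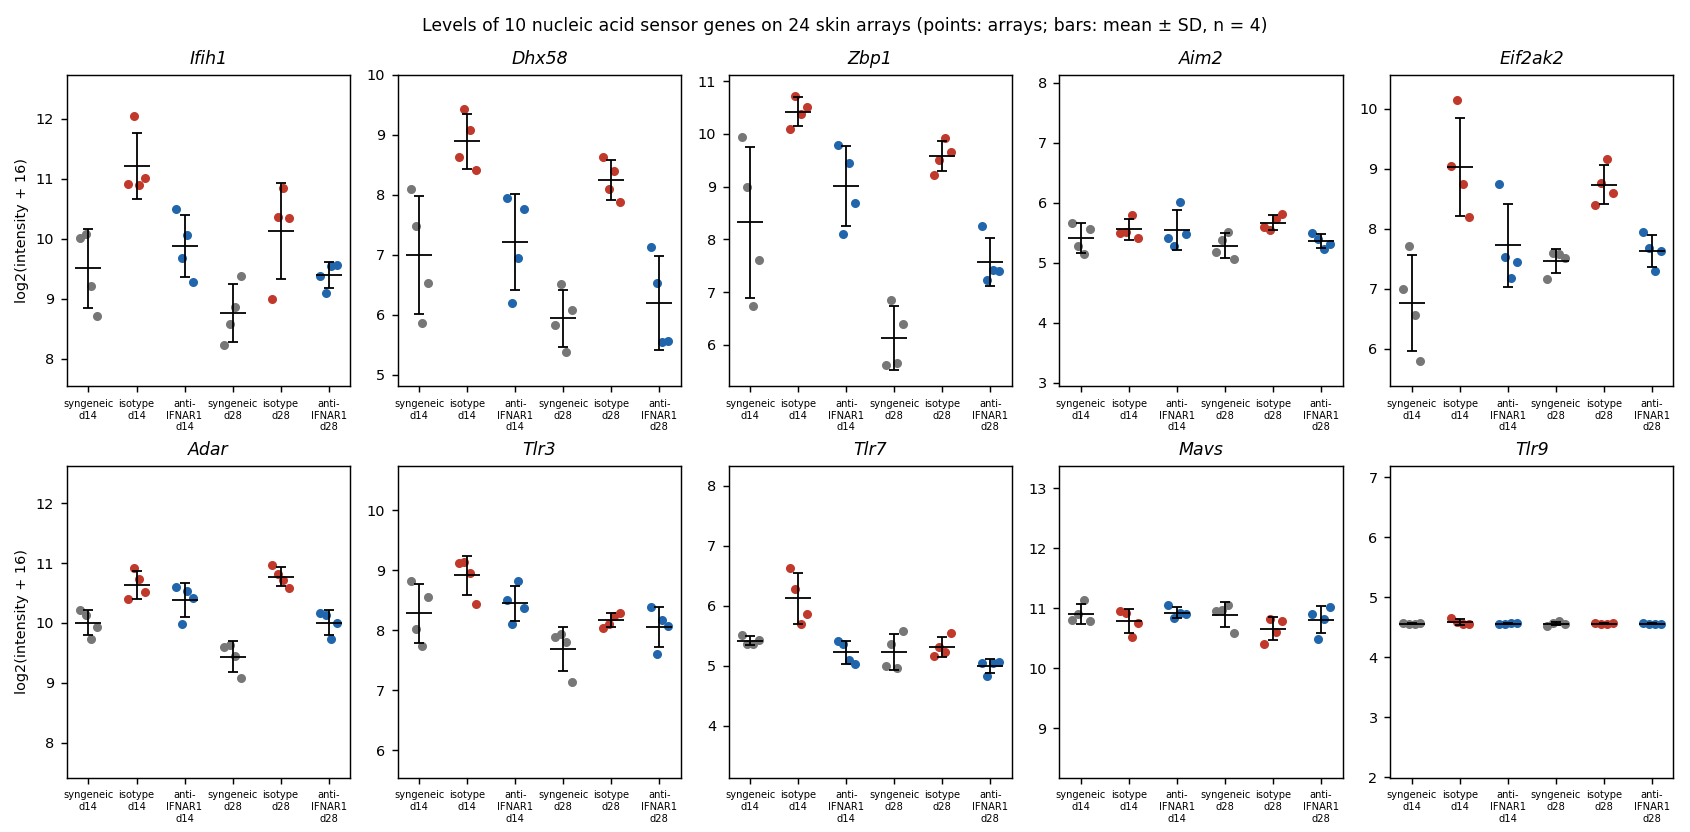
Levels of the 10 sensors on the 24 arrays, as log2(intensity + 16), with the 6 groups along the horizontal axis (points: arrays, horizontal bars: mean ± SD, n = 4). Zbp1 ranged from 5.61 to 10.73 over the arrays, whereas Tlr9 stayed between 4.52 and 4.65 in every group.

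The RNA helicase Ifih1 was higher in isotype than in syngeneic skin at both days. At day 14 its levels were 10.01, 10.08, 9.21 and 8.71 on the syngeneic arrays, 10.91, 12.04, 10.89 and 11.01 on the isotype arrays, and 10.49, 9.68, 10.07 and 9.28 on the anti-IFNAR1 arrays. Every isotype array lay above both other groups, which overlapped each other. The difference of isotype from syngeneic skin was 1.71 ± 0.39 (3.27-fold, limma adjusted p = 0.0085). Anti-IFNAR1 minus isotype was -1.33 ± 0.39 and was not called (limma adjusted p = 0.10), although the groups did not overlap. At day 28 the levels were 8.24, 8.58, 8.87 and 9.38 in syngeneic, 8.99, 10.37, 10.84 and 10.34 in isotype, and 9.39, 9.10, 9.54 and 9.57 in anti-IFNAR1 skin. Here isotype replicate 1 lay inside the syngeneic range and below all anti-IFNAR1 arrays. The isotype difference was 1.37 ± 0.39 (limma adjusted p = 0.021), and the call was lost without any one of syngeneic replicates 1 and 2 or isotype replicates 2, 3 and 4 (adjusted p of 0.052 to 0.075). The antibody difference was -0.74 ± 0.39 (limma adjusted p = 0.27).

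Dhx58, whose product lacks the signalling domains of its relatives and modulates them, was higher in isotype than in syngeneic skin at both days. Its day 28 levels were 5.82, 6.50, 5.37 and 6.07 in syngeneic, 8.62, 8.09, 8.39 and 7.88 in isotype, and 7.13, 6.53, 5.54 and 5.57 in anti-IFNAR1 skin. The isotype arrays stood above all others, and the anti-IFNAR1 arrays overlapped the syngeneic ones. The isotype difference was 2.30 ± 0.47 (4.94-fold, limma adjusted p = 0.0021) and anti-IFNAR1 minus isotype -2.05 ± 0.47 (limma adjusted p = 0.0065). At day 14 the syngeneic arrays were spread widely, at 8.09, 7.47, 5.87 and 6.53, below the isotype arrays at 8.63, 9.43, 9.07 and 8.41. The anti-IFNAR1 arrays had 7.94, 6.19, 6.95 and 7.75, all below the isotype range. The isotype difference was then 1.90 ± 0.47 (limma adjusted p = 0.013), and the antibody difference, -1.68 ± 0.47, was not called (limma adjusted p = 0.089). Dhx58 has 2 more probe sets, whose group means were between 4.29 and 4.51 in all 6 groups and which were not called in either comparison at either day. As a mean over the 3 probe sets the differences were therefore smaller, 0.66 at day 14 and 0.77 at day 28 for isotype minus syngeneic and -0.68 for the antibody at day 28, and they were still called. For the antibody at day 14 this mean was -0.59.

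Zbp1 encodes a sensor of left-handed double-stranded nucleic acid that can start necroptosis, a lytic form of cell death, through the kinase Ripk3. At day 28 its levels were 5.61, 6.85, 5.66 and 6.4 in syngeneic, 8.25, 7.24, 7.42 and 7.4 in anti-IFNAR1, and 9.23, 9.51, 9.92 and 9.66 in isotype skin. The 3 groups of that day did not overlap, with anti-IFNAR1 between the others. From syngeneic to isotype skin the difference was 3.45 ± 0.52 (10.9-fold, limma adjusted p = 0.00019), and anti-IFNAR1 minus isotype was -2.00 ± 0.52 (limma adjusted p = 0.013). At day 14 the syngeneic levels were 9.95, 9.0, 6.73 and 7.61, and the isotype levels were 10.08, 10.73, 10.37 and 10.52. Syngeneic replicate 1 thus nearly reached the lowest isotype array. The difference was 2.10 ± 0.52 (limma adjusted p = 0.012). Anti-IFNAR1 skin had 9.79, 8.11, 9.45 and 8.69, below every isotype array, with a difference of -1.42 ± 0.52 that was not called (limma adjusted p = 0.17). A second Zbp1 probe set was called in the same comparisons, with 2.54 ± 0.58 and 3.70 ± 0.58 for isotype minus syngeneic at the earlier and later day and -2.54 ± 0.58 for the antibody at day 28.

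Eif2ak2 encodes PKR, a kinase that binds double-stranded RNA and halts translation. At day 14 its levels were 6.99, 7.71, 6.57 and 5.80 in syngeneic, 9.05, 10.14, 8.74 and 8.20 in isotype, and 8.74, 7.54, 7.18 and 7.44 in anti-IFNAR1 skin. The isotype arrays lay above all syngeneic arrays, and anti-IFNAR1 replicate 1 reached into the isotype range. The isotype arrays exceeded the syngeneic ones by 2.26 ± 0.40 (4.80-fold, limma adjusted p = 0.0020), and anti-IFNAR1 minus isotype was -1.31 ± 0.40 (limma adjusted p = 0.11). At day 28 the ranges were 7.16 to 7.60 in syngeneic, 8.40 to 9.17 in isotype and 7.29 to 7.94 in anti-IFNAR1 skin. Isotype arrays again stood apart from both, with differences of 1.27 ± 0.40 (limma adjusted p = 0.035) and -1.10 ± 0.40 (limma adjusted p = 0.079). The day 28 call of isotype minus syngeneic was lost when any of 7 single arrays was left out (adjusted p of 0.057 to 0.095, each array of the 2 groups but isotype replicate 1). At day 14 its other probe sets were called for isotype minus syngeneic, with 1.47 ± 0.42 and 1.5 ± 0.44. For the antibody at day 14 they had -0.61 ± 0.42 and -0.06 ± 0.44, and as a mean over the 3 probe sets the difference was -0.66 (adjusted p = 0.26). Of these probe sets, one was called with 1.79 ± 0.44 and -1.65 ± 0.44 in these day 28 comparisons, and the other had 0.81 ± 0.42 and -0.82 ± 0.42 and was not.

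Adar encodes ADAR1, an enzyme that edits adenosine to inosine in double-stranded RNA and so keeps self RNA from being taken for foreign. Among the members called at day 28 it had the smallest SE. Its day 28 levels were 9.60, 9.64, 9.46 and 9.08 in syngeneic, 10.17, 10.14, 9.73 and 9.996 in anti-IFNAR1, and 10.96, 10.82, 10.72 and 10.58 in isotype skin. As for Zbp1, the 3 groups did not overlap and anti-IFNAR1 was intermediate. Isotype minus syngeneic was 1.33 ± 0.16 (2.52-fold, limma adjusted p = 2.5e-05), and anti-IFNAR1 minus isotype -0.76 ± 0.16 (limma adjusted p = 0.0033). At day 14 the syngeneic arrays were at 10.21, 10.14, 9.74 and 9.94, just below the isotype arrays at 10.39, 10.91, 10.74 and 10.51. That difference was 0.63 ± 0.16 (limma adjusted p = 0.013), and it lost its call without isotype replicate 2 (adjusted p = 0.054). Anti-IFNAR1 skin ranged from 9.98 to 10.61 and overlapped both other groups. A second Adar probe set gave a larger day 14 difference, 1.5 ± 0.32, which was called. The remaining one had 0.85 ± 0.34, not called, and the mean over all 3 probe sets was 0.99. At day 28 both were called for isotype minus syngeneic, with 1.35 ± 0.32 and 1.22 ± 0.34. For the antibody at day 28 they had -0.95 ± 0.32 and -0.97 ± 0.34, neither called. At day 14 the antibody differences were -0.26 ± 0.16 for the probe set used and -1.11 ± 0.32 and 0 ± 0.34 for these, none called. No statement on the constitutive and the interferon-driven isoform of Adar can be taken from these probe sets, since the transcripts they match were not used here.

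Tlr7 and Tlr3 encode endosomal receptors, Tlr7 for single-stranded RNA and Tlr3 for double-stranded RNA. Tlr7 was dim, with intensities of 12.4 to 83.4. At day 14 its levels were 5.52, 5.37, 5.36 and 5.43 in syngeneic, 6.64, 6.29, 5.70 and 5.86 in isotype, and 5.41, 5.36, 5.10 and 5.02 in anti-IFNAR1 skin. The isotype arrays were above all others of that day. Isotype minus syngeneic was 0.70 ± 0.17 (limma adjusted p = 0.011) and anti-IFNAR1 minus isotype -0.90 ± 0.17 (limma adjusted p = 0.017), the one antibody call among the members at day 14. It lost that call without isotype replicate 1 or 2 or anti-IFNAR1 replicate 4 (adjusted p of 0.051 to 0.069). At day 28 the isotype levels were 5.16 to 5.54, within the syngeneic range of 4.97 to 5.59, and the difference was 0.08 ± 0.17 (limma adjusted p = 0.97). The 2 other Tlr7 probe sets were dimmer still, and for the antibody at day 14 they had 0.38 ± 0.15 and 0.27 ± 0.11, opposite in sign and not called. As a mean over its 3 probe sets Tlr7 differed by 0.21 (adjusted p = 0.11) and -0.08 (adjusted p = 0.67) in the day 14 comparisons, so its calls rest on 1 probe set.

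Tlr3 was not called in any comparison of the main fit. Its means were 8.28 ± 0.50 (SD), 8.91 ± 0.33 and 8.45 ± 0.29 in syngeneic, isotype and anti-IFNAR1 skin at day 14, and 7.69 ± 0.37, 8.17 ± 0.12 and 8.05 ± 0.33 at day 28. Isotype minus syngeneic was 0.63 ± 0.24 (95% interval 0.14 to 1.13, limma adjusted p = 0.083) and 0.48 ± 0.24 (-0.02 to 0.97, limma adjusted p = 0.21). The day 14 difference gained a call in 5 of 21 alternatives, among them the mean over its probe sets. As a mean over its probe sets the day 28 difference was 0.23, not called. The second Tlr3 probe set had 0.72 ± 0.23 at day 14 and -0.01 ± 0.23 at day 28, neither called. Aim2 encodes a cytoplasmic sensor of double-stranded DNA that assembles an inflammasome, a complex that activates Il1b. It was dim, with intensities of 17.2 to 48.8. Its isotype arrays at day 28, at 5.59, 5.55, 5.72 and 5.82, lay above the syngeneic arrays, at 5.18, 5.38, 5.51 and 5.05. The difference of 0.38 ± 0.15 was not called (limma adjusted p = 0.086), and on this scale it is compressed by the offset. At day 14 Aim2 differed by 0.14 ± 0.15 (95% interval -0.17 to 0.45).

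The 2 members outside the inducible class were not called in these comparisons. Mavs had means from 10.65 ± 0.19 (SD) in isotype skin at day 28 to 10.92 ± 0.09 in anti-IFNAR1 skin at day 14, and all 6 groups overlapped their neighbours in that order. Isotype minus syngeneic was -0.12 ± 0.13 (95% interval -0.39 to 0.15) at day 14 and -0.23 ± 0.13 (-0.50 to 0.04) at day 28. The probe set used is of the _x_at kind, which may bind other transcripts too, so these values may not be those of Mavs alone. Its second probe set had 0.37 ± 0.17 and -0.17 ± 0.17 and was not called, and the mean over both was 0.13 at day 14. Tlr9, an endosomal receptor for unmethylated DNA that is best known from B cells and plasmacytoid dendritic cells, had intensities of 6.98 to 9.15, below the median of every array. Its differences were at most 0.03 in size, and at such intensities they do not show whether Tlr9 was regulated. Of 7 B cell genes 6, among them Ms4a1, Cd79a and Pax5, had group means of at most 4.86. The other, Cd22, had group means of 5.44 to 7.57 and rose in isotype skin at both days. Of 7 plasmacytoid genes Siglech was at 4.31, whereas Bst2, Tcf4 and Cox6a2, which other cells express too, had group means of 8.12 to 12.31. In isotype skin 1 of these 7 rose and 1 fell at day 14, and 2 rose and 2 fell at day 28. Over all genes 5.29% rose and 8.3% fell at day 14, and 6.66% and 9.69% at day 28, so a count of 1 is near that share. The part of B cells and plasmacytoid dendritic cells in the Tlr9 level was not tested.

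**Figure D2:**
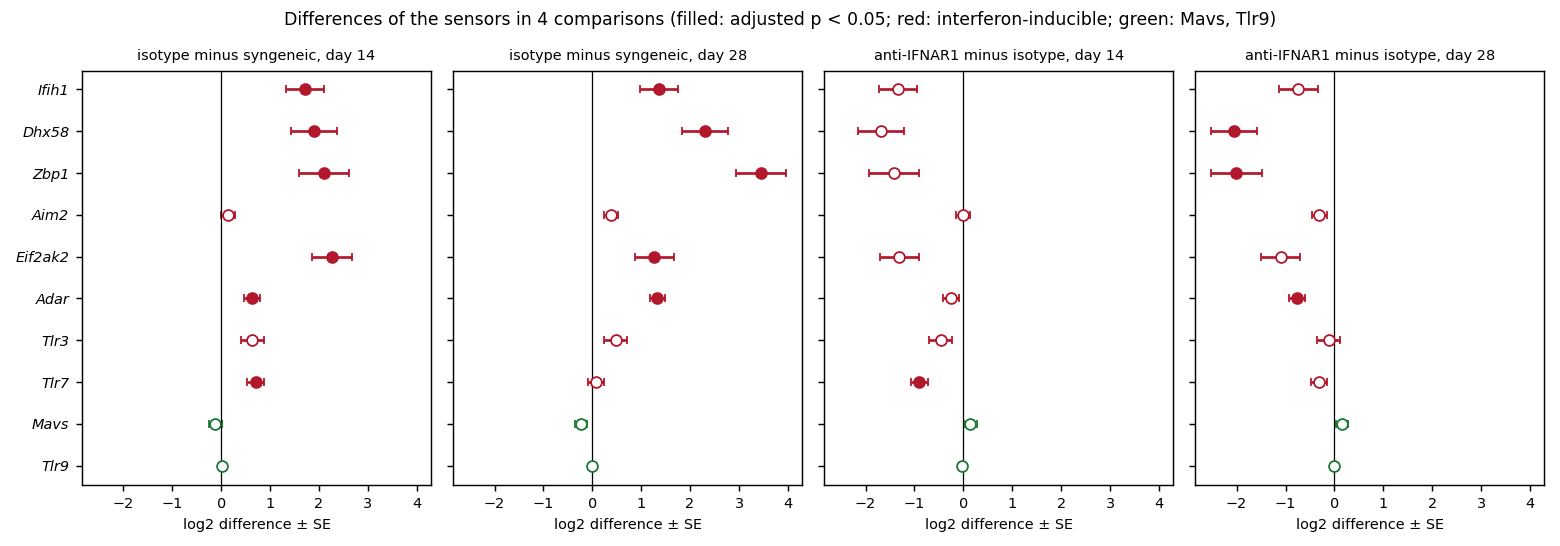
Log2 difference ± SE of each sensor for isotype minus syngeneic and anti-IFNAR1 minus isotype at each day (n = 4 arrays per group), with filled points for an adjusted p below 0.05, red for the inducible class and green for Mavs and Tlr9. Filled points lie to the right in the isotype panels, from 0.63 to 3.45, and to the left in the antibody panels, from -0.76 to -2.05.

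Counted by groups that do not overlap, 6 sensors had every isotype array above every syngeneic array at day 14, and these were the 6 that were called. Over all genes the share was 5.11%. At day 28 there were also 6, Dhx58, Zbp1, Aim2, Eif2ak2, Adar and Tlr3, against 8.09% of genes. Every anti-IFNAR1 array lay below every isotype array for 4 sensors at day 14 (Ifih1, Dhx58, Zbp1 and Tlr7, 7.51% of genes) and for 6 at day 28 (Dhx58, Zbp1, Aim2, Eif2ak2, Adar and Tlr7, 6.85% of genes). Mavs and Tlr9 overlapped between the groups in all 4 comparisons.

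The counts of called sensors depended on the arrays used and on how the spread was estimated. With a fit of only the 8 arrays compared, 0 of the 10 sensors were called by limma in isotype minus syngeneic at day 14 (6 had an unadjusted p below 0.05), where 83 genes were called in all. How many of all genes had an unadjusted p below 0.05 in that fit was not counted. In the main fit 4942 of all genes did. Without the 5 arrays of high Gapdh ratio 3 sensors were called at day 14, and Dhx58, Zbp1 and Adar had adjusted p of 0.067 to 0.078. The 10 sensors gave 4 calls at day 28 with only the arrays compared and 6 without the high-ratio arrays. Leaving out 1 array at a time gave 5 to 7 calls at day 14 and 3 to 5 at day 28. Dhx58, Zbp1 and Adar were called at day 28, in both isotype minus syngeneic and anti-IFNAR1 minus isotype, under every alternative that was run.

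Anti-IFNAR1 skin was set against syngeneic skin to see what difference was left under the antibody. Of the 10 sensors limma called 0 at day 14, where 1.12% of genes were called, and 0 at day 28, where 0.033% were. Unadjusted p was below 0.05 for Eif2ak2 and Adar at day 14 and for Zbp1 and Adar at day 28. Of all genes, 2610 were below that limit at day 14 and 370 at day 28. The sensor count of day 14 is therefore near the share over all genes, and that of day 28 is above it. At day 28 Zbp1 was 1.45 ± 0.52 above syngeneic skin (95% interval 0.36 to 2.53) and Adar 0.57 ± 0.16 (0.23 to 0.90), both without overlap of the groups, as for 1.34% of genes. Dhx58 differed from syngeneic skin by 0.25 ± 0.47 (-0.73 to 1.24). The missing calls do not show that the levels were alike: for Ifih1 the day 28 interval ran from -0.19 to 1.45.

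Between the days, Tlr7 fell in isotype skin by 0.81 on the log2 scale (SE 0.17, limma adjusted p = 0.016), and it was the one sensor called (1.05% of genes were called lower). Its call was lost without isotype replicate 1 of day 28 (adjusted p = 0.058), without the high-ratio arrays (adjusted p = 0.081) and with only the arrays compared (adjusted p = 0.22). As a mean over its 3 probe sets the difference was -0.26 (adjusted p = 0.11), and the other two probe sets had -0.005 and 0.04. Under that mean Tlr3 was called in its place. Isotype arrays of day 28 lay below those of day 14 without overlap for Ifih1, Zbp1, Tlr3 and Tlr7, as for 5.02% of genes. In syngeneic skin limma called 0 sensors (0.077% of genes were called), and 4 sensors and 1652 of all genes had an unadjusted p below 0.05. There Zbp1 had 8.32 ± 1.43 (SD) at day 14 and 6.13 ± 0.60 at day 28, a difference of -2.19 ± 0.52 (limma adjusted p = 0.099). In anti-IFNAR1 skin limma also called 0 (0.555% of genes were called), and 3 sensors and 2368 of all genes had an unadjusted p below 0.05. The limma test of whether the isotype difference itself changed from day 14 to day 28 called 0 of 10 (0.044% of genes). An unadjusted p below 0.05 was found for 2 sensors and for 1775 of all genes. The same test of the antibody difference called 0 (0.0715% of genes), with 2 sensors and 2468 of all genes below 0.05 unadjusted. For Adar the isotype difference was larger by 0.70 ± 0.22 at day 28 (limma adjusted p = 0.29) and for Tlr7 smaller, at -0.62 ± 0.24 (limma adjusted p = 0.40). Calls that appear at 1 day only were therefore not shown to differ between days.

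**Figure D3:**
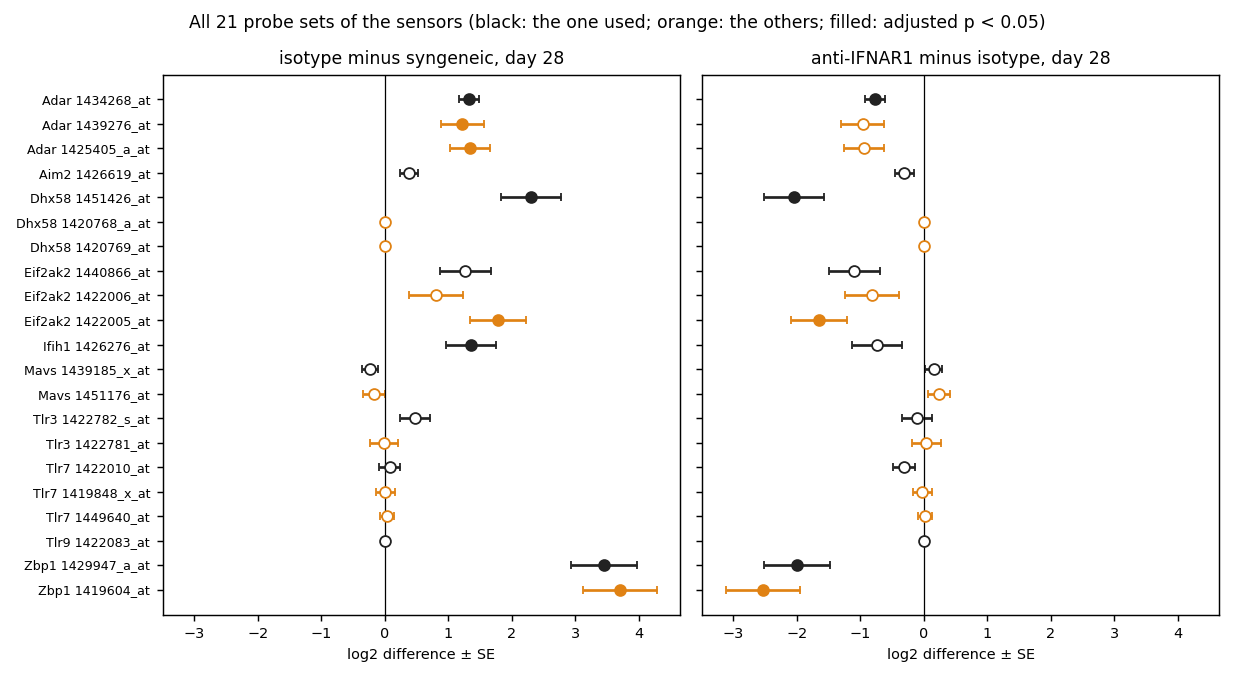
Log2 difference ± SE at day 28 of all 21 probe sets of the sensors (black: the probe set used, orange: the others, filled: adjusted p below 0.05 over all probe sets of the array). Both Zbp1 probe sets lie near 3.5 for isotype minus syngeneic, while 2 of the 3 Dhx58 probe sets lie near 0, and Eif2ak2 at 1.27 is unfilled here because adjustment over all probe sets gave an adjusted p of 0.054.

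Some arrays of day 14 stood high or low for several of the sensors. In syngeneic skin, replicates 1 and 2 had the higher levels of Ifih1, Dhx58, Zbp1, Eif2ak2 and Adar, and replicates 3 and 4 the lower. In anti-IFNAR1 skin of that day replicate 1 was highest for these same genes. Aim2, Tlr3 and Tlr7 did not share the order of the syngeneic arrays. In isotype skin at day 28 replicate 1 was lowest for Ifih1, Zbp1 and Eif2ak2 but highest for Dhx58 and Adar. A list of 13 interferon response genes that are not sensors holds genes such as Ifit1 and Oasl1. Its means were also highest on syngeneic replicates 1 and 2 and on anti-IFNAR1 replicate 1 of day 14. Its array means were 8.62, 8.0, 7.27 and 7.82 in that syngeneic group and 8.97, 7.45, 7.93 and 8.29 in that anti-IFNAR1 group. In isotype skin at day 28 they were 8.79, 8.69, 9.08 and 8.40, highest on replicate 3. Group means of this list were 7.93, 9.62 and 8.16 at day 14 and 6.83, 8.74 and 7.07 at day 28 for syngeneic, isotype and anti-IFNAR1 skin. Of its genes 10 rose in isotype skin at each day, and 3 and 10 were lower with anti-IFNAR1 at day 14 and day 28.

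Markers of T cells, macrophages, neutrophils and some other tissues moved in the same comparisons as the sensors, whereas most dendritic cell markers did not. All 8 T cell genes measured were higher in isotype than in syngeneic skin at both days. Their array means ran from 4.80 to 5.59 in syngeneic, 7.37 to 8.09 in isotype and 6.04 to 6.82 in anti-IFNAR1 skin at day 14, and from 4.69 to 5.0, 7.08 to 7.43 and 5.54 to 5.90 at day 28. Of 11 macrophage and monocyte genes 10 rose at day 14 and 9 at day 28, with group means of 10.39, 12.35 and 11.36 at day 14 and 9.57, 11.36 and 10.29 at day 28 in the same order of groups. Of 6 neutrophil genes 4 and 5 rose, and their mean at day 28 was 5.98, 9.47 and 5.98. Of 7 dendritic cell genes 0 rose and 2 fell at day 14, and 1 rose and 0 fell at day 28, with medians of -0.19 and -0.0002. The mean of 6 endothelial genes was 7.44, 7.33 and 6.92 at day 14 and 7.35, 7.08 and 7.59 at day 28. Of 7 keratinocyte genes 1 rose at each day. Of 6 adipocyte genes 1 fell at day 14 and 6 fell at day 28, when all 6 were higher with anti-IFNAR1 than with isotype (medians of -2.01 and 2.23). Their array means at day 28 ran from 10.51 to 11.47 in syngeneic, 8.49 to 9.61 in isotype and 10.50 to 11.58 in anti-IFNAR1 skin. Of 7 skeletal muscle genes 5 fell in isotype skin at day 28 and 5 were higher with the antibody (medians of -0.92 and 1.01), and 0 were called at day 14. Their array means at day 28 were 14.51 to 15.27, 13.48 to 14.65 and 14.71 to 15.29 in the same order of groups. Of 8 fibroblast genes 2 fell at each day. Over all genes 5.29% rose and 8.3% fell in isotype skin at day 14, and 6.66% and 9.69% at day 28. A count of 1 gene in such a list is therefore near the share over all genes. With anti-IFNAR1 at day 28, 8.42% of all genes were higher than with isotype. The part of these cells and tissues in the sensor levels was not tested. The mean of 10 hair follicle genes ranged from 7.54 to 12.22 over the syngeneic arrays of day 28. In isotype skin of that day it was 8.58 on replicate 1 and 5.23 to 5.31 on the others. In anti-IFNAR1 skin it ran from 5.21 to 13.33. With the hair follicle mean as a covariate, an alternative added after the data had been seen, Ifih1 and Eif2ak2 lost their day 28 calls (limma adjusted p = 0.10 and 0.091). Dhx58, Zbp1 and Adar did not. The covariate itself averaged 9.93 in syngeneic and 6.09 in isotype skin at day 28. A lost call therefore cannot be told apart from removal of the difference between the groups.

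Genes of the surrounding pathway were taken from 7 lists that hold 75 measured genes besides the members. In isotype minus syngeneic 29 of them rose and 3 fell at day 14, and 26 rose and 4 fell at day 28, with medians of 0.51 and 0.41. Over all genes 5.29% rose and 8.3% fell at day 14, and 6.66% and 9.69% at day 28. With anti-IFNAR1, 0 rose and 5 fell at day 14, and 3 rose and 19 fell at day 28. The shares over all genes were 0.159% higher and 0.654% lower at day 14, and 8.42% and 4.89% at day 28. In the lists below, a count of 1 gene in isotype minus syngeneic is therefore near the share over all genes. At day 14 the count depended on the arrays used: a limma fit restricted to the groups compared called 1 of the 75 in isotype minus syngeneic (34 with an unadjusted p below 0.05) and 0 in anti-IFNAR1 minus isotype (38 unadjusted). Without the high-ratio arrays these counts were 19 and 0 (27 unadjusted for the latter). At day 28 they were 20 and 17 with only the arrays compared. The number of all genes with an unadjusted p below 0.05 was not counted in these alternative fits. Their unadjusted counts therefore have no share over all genes beside them. In the main fit at day 14, 4942 of all genes and 41 of the 75 were below 0.05 for isotype minus syngeneic. For anti-IFNAR1 minus isotype these were 3075 and 33.

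**Figure D4:**
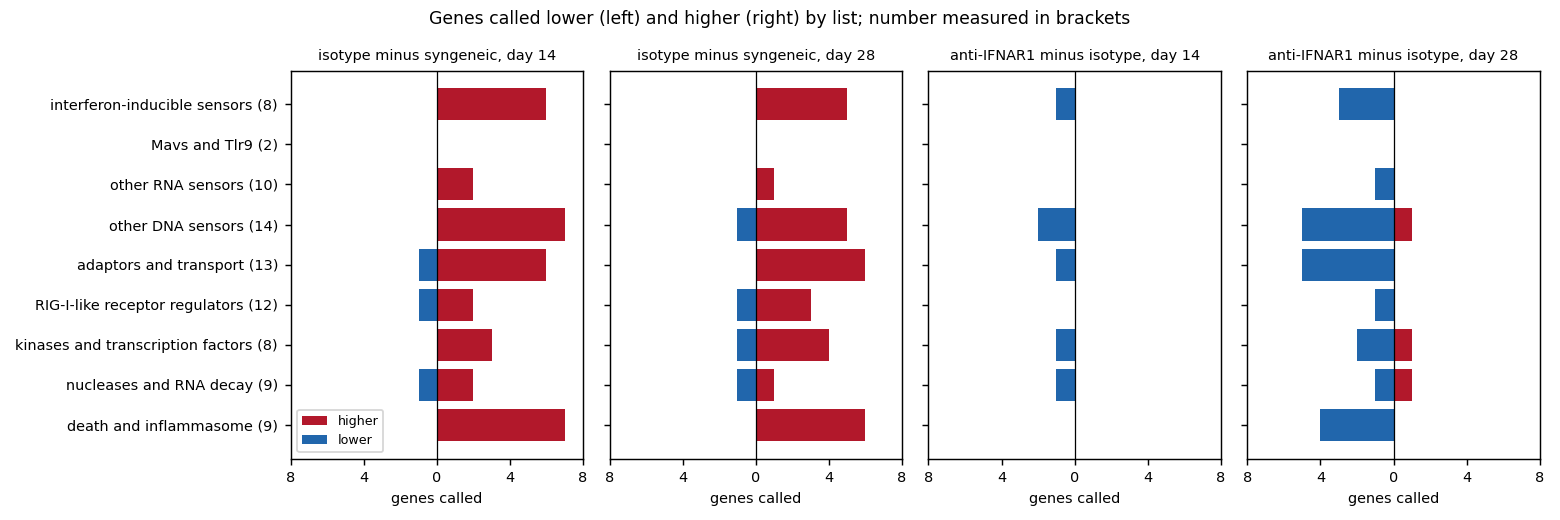
Number of genes called higher (red, right) and lower (blue, left) in the sensor classes and in 7 lists of pathway genes, for 4 comparisons, with the number of genes measured in brackets. Cell death and inflammasome effectors had 7 of 9 genes higher in isotype skin at day 14 and 6 at day 28, and 4 of them lower with anti-IFNAR1 at day 28.

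Among other RNA sensors, 2 of 10 measured rose at day 14 and 1 at day 28. Rigi, which encodes RIG-I, was on this list but was not measured, and the same holds for Nod2 and Nlrp1b. Tlr13, an endosomal receptor of mice for bacterial ribosomal RNA, had means of 6.44 ± 1.27 (SD), 9.52 ± 0.64 and 7.92 ± 0.64 in syngeneic, isotype and anti-IFNAR1 skin at day 14. Its isotype difference was 3.08 ± 0.52 at day 14 and 2.75 ± 0.52 at day 28, and it was lower with the antibody at day 28, with a difference of -2.20 ± 0.52 (limma adjusted p = 0.0077). Ddx60, a helicase of the antiviral response, rose by 2.13 ± 0.62 at day 14. Of 14 other DNA sensors 7 rose at day 14, and 5 rose and 1 fell at day 28. Ifi202b and Ifi209, relatives of Aim2 in the family of interferon-inducible DNA-binding proteins, rose by 2.97 ± 0.46 and 2.28 ± 0.49 at day 14 and by 2.65 ± 0.46 and 1.68 ± 0.49 at day 28. With the antibody Ifi209 differed by -2.38 ± 0.49 at day 14, and Ifi202b, Ifi207 and Ifi209 by -2.32 ± 0.46, -1.34 ± 0.33 and -1.68 ± 0.49 at day 28, all called. Ddx41, a helicase put forward as a DNA sensor, rose by 0.73 ± 0.22 in isotype skin at day 14 and was lower with the antibody at that day, with a difference of -1.01 ± 0.22 (limma adjusted p = 0.034).

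Of 13 adaptors, transport proteins and surface Toll-like receptors, 6 rose and 1 fell at day 14, and 6 rose at day 28. Sting1, the adaptor of cytoplasmic DNA sensing, rose by 2.50 ± 0.38 at day 28 (limma adjusted p = 0.00021) and fell by 2.12 with anti-IFNAR1 (SE 0.38, limma adjusted p = 0.0013). Tlr2, a surface receptor for bacterial lipoproteins, rose by 2.32 ± 0.30 and 2.57 ± 0.30 at the 2 days and was lower with the antibody at both, with differences of -1.62 ± 0.30 and -2.04 ± 0.30. Tlr4, the receptor for lipopolysaccharide, rose by 2.11 ± 0.55 at day 14, and Myd88, the adaptor shared by most Toll-like receptors, was lower with anti-IFNAR1 at day 28, with a difference of -1.38 ± 0.27. Of 12 regulators of RIG-I-like receptors 2 rose and 1 fell at day 14, and 3 rose and 1 fell at day 28. The largest was Rnf125, a ubiquitin ligase that marks such receptors for degradation, at 2.62 ± 0.59 on day 14.

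Of 8 kinases and transcription factors that carry the signal on, 3 rose at day 14, and 4 rose and 1 fell at day 28. Irf7, the factor that amplifies interferon genes, rose by 2.44 ± 0.44 and 2.15 ± 0.44, and differed by -2.14 ± 0.44 and -2.02 ± 0.44 with the antibody, called at both days. Of 9 nucleases and RNA decay proteins, 2 rose and 1 fell at day 14, and 1 rose and 1 fell at day 28. Samhd1, which degrades the building blocks of DNA, rose by 2.78 ± 0.46 at day 28 and was lower with the antibody, with a difference of -1.71 ± 0.46. Isg20, an exonuclease of RNA, was lower with the antibody at day 14, with a difference of -0.88 ± 0.19.

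The last list holds effectors of cell death and of the inflammasome, of which 7 of 9 rose at day 14 and 6 at day 28. Ripk3, the kinase that Zbp1 engages, rose by 1.89 ± 0.40 and 1.74 ± 0.40, and Mlkl, which it activates to break the cell membrane, by 2.37 ± 0.58 and 3.16 ± 0.58. Casp4, a caspase that detects lipopolysaccharide in the cytoplasm, rose by 2.33 ± 0.41 and 1.73 ± 0.41. Gsdmd, the pore protein of pyroptosis, rose by 1.95 ± 0.26 at day 28. Il1b rose by 2.37 ± 0.73 and 4.98 ± 0.73, whereas Aim2 itself was not called. With anti-IFNAR1 at day 28 Mlkl, Gsdmd and Il1b were lower, with differences of -2.15 ± 0.58, -1.42 ± 0.26 and -5.13 ± 0.73. Against syngeneic skin, anti-IFNAR1 skin had 1 of the 75 genes lower at day 14 and limma called 0 at day 28. Over all genes 1.12% and 0.033% were called either way, so these counts are near the share over all genes. They do not show that the levels were alike.

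The genes whose course over the 6 group means was most like that of a called sensor were found by the root mean square difference of means, each gene centred on its own mean. For Zbp1 they were Irgm1, Itgb2 and Slc15a3, with differences of 0.15, 0.19 and 0.19 beside a range of 4.29 in Zbp1. Dhx58 was followed most closely by Phf11d, Tlr2 and Ccr1, at 0.16 to 0.18 and a range of 2.94. Ifih1 was nearest to Tnfaip3, Snx10 and Erap1, at 0.11 to 0.12. For Adar they were Hcst, Irf9 and Nlrp3, at 0.07 to 0.11, and for Eif2ak2 Tnfrsf12a, Ccdc86 and Casp8, at 0.17 to 0.22. The dim Tlr7 was nearest to Sdf2l1, Sln and Sppl2a, at 0.07. These are likenesses over 6 means from the same arrays, with no test.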

How the data were processed

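Per the labels, total RNA of skin was extracted with a column kit, biotin-labelled and hybridised to Affymetrix arrays. The authors deposited probe set signals as linear intensity values, from 1.68 to 92640.3. Their summarisation, background correction and normalization are not given in the sources used here. The values were analysed as log2(intensity + 16) without further normalization. The platform annotation gave 34945 of 45101 probe sets 1 gene symbol, 932 several and 9160 none, and 64 were controls. Symbols were updated by gene identifier for 34741 and kept for 204. The probe set of highest mean represented each of 18193 genes, 9010 of which had several. The 4 arrays per group limit the precision. No identical arrays were found.

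The 6 group means were estimated jointly over 24 arrays in limma 3.58.1 (R 4.3.3; lmFit and eBayes, 18 residual degrees of freedom, prior 0.71), two-sided, with Benjamini-Hochberg adjustment over all genes at 0.05. The fit was tested on simulated data. Members, lists and tests were chosen with earlier results of these data known. The naming rule took all members, up to 12 called pathway genes of greatest change per comparison, and the 3 genes most like each called member. Genes on the lists without a probe set used were not analysed here. Alternatives were quantile or median normalization, offset, probe set choice, a filter on dim genes, priors, array weights, replicate block, Gapdh ratio, hair follicle mean and leaving out arrays.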

Additional observations from a re-analysis of the deposited data

Results flagged for a closer look

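Among the 60 combinations of a sensor with a group, 2 held an array far from the other 3, at a limit that chance passes in about 1 of 20 groups, so this number is no more than chance gives. Ifih1 in isotype skin at day 14 was 12.04 on replicate 2, where the other arrays had 10.89 to 11.01. Without that array isotype minus syngeneic for Ifih1 was still called. Tlr7 in anti-IFNAR1 skin at day 28 was 4.83 on replicate 2, where the others had 5.04 to 5.06. This array also had a hair follicle mean of 13.33.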

How the results depend on the processing

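No called member reversed its direction under any alternative run. The counts of called members in the 11 tests moved by at most 1.5 times in 220 alternative fits, rose by more in 9 and fell by more in 18. The 220 include fits in which a main count of 0 stayed at 0. A main count of 0 could not fall, so the 18 all belong to tests that had a call. For single sensors, 38 fits lost and 30 gained a call. Main counts were 6 and 5 for isotype minus syngeneic at day 14 and 28, 1 and 3 for anti-IFNAR1 minus isotype, 1 for isotype skin between days and 0 in the others. With only the arrays compared they were 0 at day 14 for isotype minus syngeneic, 0 at day 14 for anti-IFNAR1 minus isotype and 0 for isotype skin between days (limma; 6, 5 and 4 sensors had an unadjusted p below 0.05). Without arrays of high Gapdh ratio they were 3, 0 and 0 (3 and 2 unadjusted for the latter), and with the ratio as a covariate anti-IFNAR1 minus isotype at day 14 had 0 (7 unadjusted) and isotype skin between days 2. Array weights gave 7 at day 14 and 6 at day 28 for anti-IFNAR1 minus isotype, 2 for anti-IFNAR1 minus syngeneic at day 28, and 2 each for syngeneic and isotype skin between days. The mean of all probe sets gave 0 for anti-IFNAR1 minus isotype at day 14 (6 unadjusted), and the hair follicle mean as a covariate gave 3 for isotype minus syngeneic at day 28. Unadjusted counts over all genes were not taken for these alternatives. In the main fit they were 4942 for isotype minus syngeneic at day 14 and 3075 for anti-IFNAR1 minus isotype at day 14. For isotype skin between days the main fit had 2668. Leaving out each array in turn gave 5 to 7 and 3 to 5 for isotype minus syngeneic at day 14 and 28, 0 to 2 and 3 for anti-IFNAR1 minus isotype, and 0 to 1 for syngeneic and for isotype skin between days. Over all genes the array weights raised the calls of anti-IFNAR1 minus isotype at day 14 from 148 to 2596, and the fit of only the arrays compared lowered those of isotype minus syngeneic at day 14 from 2472 to 83. For anti-IFNAR1 minus isotype at day 14 the fit of only the arrays compared called 2 genes in all. Without the high-ratio arrays the all-gene calls at day 14 were 1315 for isotype minus syngeneic and 19 for anti-IFNAR1 minus isotype. The fit of only the arrays compared has 6 residual degrees of freedom by construction, and for the other alternatives the cause was not tested.

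Correlations of same-numbered arrays ran from -0.62 to 0.57, so no consistent pairing by replicate number was seen. These values do not tell whether some same-numbered arrays are related. With a replicate block the counts of called members stayed at 6, 5, 1 and 3 in the first 4 comparisons and at 0, 0, 0, 1 and 0 in the others between groups or days, while calls over all genes for anti-IFNAR1 minus isotype at day 14 went from 148 to 64.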
